A study of Homo sapiens with 4 samples.

Results

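The cornified envelope is the protein shell that replaces the plasma membrane of a keratinocyte at the end of its differentiation. The genes described here are 10 members of this programme, measured in RNA-Seq libraries of FaDu, an established cell line of a squamous carcinoma from the hypopharynx. They were chosen by symbol, as the rows for IVL, SPRR1A, SPRR1B, SPRR2A, SPRR2D, SPRR3, TGM1, EVPL, CNFN and FLG that lie on a chromosome. That gave 10 rows of 62077 in the table, 56627 of which lie on chromosomes. The rule itself used no measured value, but the members were chosen with earlier results of these data known. Cells with a scrambled control were set beside cells in which TET1 was knocked down (TET1-si), each under normoxia and under hypoxia. Hypoxia was 19 h at 1% O2 and 5% CO2, and the oxygen level of normoxia is not given in the sources used here. Each of the 4 groups had 1 library: N-scr (normoxia, scrambled), H-scr (hypoxia, scrambled), N-si (normoxia, TET1-si) and H-si (hypoxia, TET1-si). The study's methods give short hairpin RNAs in a lentiviral vector as the means of knockdown. Its text calls the sequenced FaDu cells clones, while its methods describe viral infection followed by assays some days later, and how many clones stand behind a library is not given in the sources used here. The design asks how the genes responded to low oxygen and whether that response differed when TET1, an enzyme that oxidises 5-methylcytosine in DNA, was depleted.

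In a stratified epithelium, cells that leave the basal layer switch on envelope precursors such as involucrin (IVL) and the small proline-rich proteins (SPRR). Transglutaminase 1 (TGM1), an enzyme anchored in the membrane, crosslinks them onto a scaffold of plakins that includes envoplakin (EVPL). Cornifelin (CNFN) is a minor envelope component, and filaggrin (FLG) bundles keratin filaments in the outermost layers. Most precursor genes sit side by side on chromosome 1 in the epidermal differentiation complex, and squamous carcinomas differ widely in how much of the programme they keep.

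Depth, recovered from the steps between low values, was 22500000 to 24500000 reads per library. Levels are given in FPKM (fragments per kilobase of exon scaled to the mapped total), and approximate reads stand beside them. No group had a replicate, so every difference described is one between single libraries and has no replicate check. The knockdown target TET1 was listed in scrambled cells at 0.129 FPKM (28 reads) under normoxia and 0.331 (76 reads) under hypoxia, and in TET1-si cells at 0.0493 (11 reads) and 0.122 (26 reads). The scrambled library was 2.63-fold higher under normoxia and 2.71-fold higher under hypoxia, in the direction of the labels. Of 8 epithelial identity genes, 8 had a mean of at least 1 FPKM. The highest were KRT5 (2673, 3993, 524 and 1430 FPKM in N-scr, H-scr, N-si and H-si), KRT8 (1739, 1903, 481 and 453), KRT18 (1109, 970, 304 and 227) and the epithelial cadherin CDH1 (179, 292, 267 and 399). The list's summed level was 6069 and 7602 FPKM in the scrambled libraries (normoxia, then hypoxia), against 1912 and 2930 in the TET1-si libraries. In hypoxia 1 of the 8 was 2-fold higher or more in scrambled cells and 3 were in TET1-si cells (12.9% and 12.5% of all genes with that mean). After TET1-si 4 were 2-fold lower or more in each oxygen state (8.35% of all genes under hypoxia and 5.56% under normoxia). The 4 lower genes were the keratins of the list (KRT5, KRT8, KRT18 and KRT14). Their summed level was 5563 and 6966 FPKM in the scrambled libraries against 1310 and 2112 in the TET1-si libraries, while that of the other 4, CDH1 and EPCAM among them, was 506 and 636 against 602 and 818. KRT14 and EPCAM were named after their values were seen. The part of these genes in the results for the envelope genes was not tested.

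Promoters (RefSeq, GRCh38.p14, the 250 bases before the start) matched 7 of the 10 genes by symbol, all but SPRR2D, TGM1 and EVPL. They were searched on both strands for TGANTCA, the core letters recognised by AP-1 transcription factors, which was held by 6 of the 7 and by 6.57% of all 35116 promoters of that length. CNFN was the exception. The promoters of IVL, SPRR1A, SPRR1B and CNFN are printed, and capitals mark each TGANTCA match.
IVL, chr1:152908296-152908545, plus strand: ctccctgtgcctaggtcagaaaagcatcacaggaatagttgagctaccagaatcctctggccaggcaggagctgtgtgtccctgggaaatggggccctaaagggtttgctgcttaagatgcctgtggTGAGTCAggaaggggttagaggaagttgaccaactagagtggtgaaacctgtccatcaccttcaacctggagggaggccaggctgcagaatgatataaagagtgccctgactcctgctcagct
SPRR1A, chr1:152983831-152984080, plus strand: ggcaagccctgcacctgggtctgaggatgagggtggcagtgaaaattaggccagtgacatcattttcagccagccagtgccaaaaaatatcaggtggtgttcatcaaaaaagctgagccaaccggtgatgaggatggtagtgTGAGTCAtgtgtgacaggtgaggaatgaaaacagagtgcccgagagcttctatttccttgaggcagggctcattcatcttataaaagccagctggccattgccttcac
SPRR1B, chr1:153030953-153031202, plus strand: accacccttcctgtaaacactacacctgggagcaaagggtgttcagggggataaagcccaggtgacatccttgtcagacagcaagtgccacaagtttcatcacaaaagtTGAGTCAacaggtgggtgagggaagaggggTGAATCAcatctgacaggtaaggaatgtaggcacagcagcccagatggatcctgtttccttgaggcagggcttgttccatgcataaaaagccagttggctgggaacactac
CNFN, chr19:42390298-42390547, minus strand: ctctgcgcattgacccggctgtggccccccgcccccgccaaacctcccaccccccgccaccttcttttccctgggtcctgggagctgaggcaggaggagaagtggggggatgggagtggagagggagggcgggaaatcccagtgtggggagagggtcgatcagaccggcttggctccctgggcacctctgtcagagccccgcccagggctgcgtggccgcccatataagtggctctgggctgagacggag
The match began 123 bases before the start in IVL and 108 bases before it in SPRR1A. SPRR1B held a match at 141 and another at 111 bases. In the promoters not printed, it began at 197 bases in SPRR2A, 170 in SPRR3 and 79 in FLG. The TATA box letters TATAAA, read on the strand of the gene, were found in 5 of the 7 promoters (IVL, SPRR1A, SPRR2A, SPRR3 and FLG), against 6.80% of all. CNFN also stood apart in base composition, with 12 CG dinucleotides and a GC content of 68.4%. The other 6 promoters held 0 to 2 CG dinucleotides, where the median promoter held 11. The hypoxia response core, ACGTG or GCGTG on either strand, was present in 2 of the 7 (FLG and CNFN) and in 43.2% of all promoters. Motif matches describe the letters of these windows and do not show that a factor was bound there.

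TGM1 (ENSG00000092295, hg19 chr14:24718320-24733638, minus strand, 15 exons), the crosslinking enzyme, was higher in hypoxia and lower after TET1-si in both comparisons of each kind. Scrambled cells had 7.89 FPKM (457 reads) in normoxia and 39.6 FPKM (2457 reads) in hypoxia, and TET1-si cells had 2.13 FPKM (131 reads) and 13.5 FPKM (769 reads). H-scr was thus the highest library and N-si the lowest, and H-si stood above N-scr. In such bulk libraries, fewer cells with a transcript and less of it per cell cannot be told apart. In hypoxia TGM1 was 5.02-fold higher with the scrambled control and 6.35-fold higher with TET1-si. On the log2 scale the 95% intervals of these ratios, which cover counting error only, ran from 2.18 to 2.48 and from 2.40 to 2.95. TET1-si cells were 2.93-fold lower under hypoxia (-1.67 to -1.44) and 3.71-fold lower under normoxia (-2.19 to -1.61). TGM1 had the highest level of the 10 genes in H-scr, at the 77.4th percentile of genes with a mean of at least 1 FPKM, and in N-si it stood at the 16.4th. The study's own RNA-Seq criteria for a TET1-regulated gene are 3 inequalities: under hypoxia the scrambled level is more than 2 times the TET1-si level, the scrambled level is higher in hypoxia than in normoxia, and under normoxia it is not below the TET1-si level. TGM1 was the 1 member of 10 that met them. So did 2638 of 56423 rows tested (4.68%) and 578 of 15057 genes with a mean of at least 1 FPKM (3.84%). Neither count equals the number of TET1-regulated genes that the study reports, so its gene set was not reproduced here. Whether TGM1 belongs to that set was not tested.

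IVL (ENSG00000163207, hg19 chr1:152881021-152884362, plus strand, 2 exons), the glutamine-rich precursor on which the crosslinker acts, had 0.0483 FPKM (2 reads) in normoxia and 0.629 FPKM (30 reads) in hypoxia with the scrambled control. With TET1-si it had 0.231 FPKM (11 reads) and 1.37 FPKM (60 reads). Its mean of 0.570 FPKM was below the minimum of 1, so IVL entered no count of 2-fold calls. Both hypoxia libraries were higher than their normoxia libraries, and both TET1-si libraries were higher than the scrambled ones, opposite to TGM1. The hypoxia ratio was 13.01 in scrambled cells (log2 counting interval 1.83 to 6.92) and 5.95 in TET1-si cells (1.62 to 3.64). IVL was 2.18-fold higher in TET1-si cells under hypoxia, with an interval of 0.47 to 1.81. Under normoxia the ratio was 4.78, and with 2 reads in N-scr its interval ran from 0.17 to 5.58.

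SPRR1A (ENSG00000169474, hg19 chr1:152956557-152958289, plus strand), a small proline-rich precursor whose repeats are crosslinked into the envelope, had most of its reads in 1 library. Scrambled cells went from a listed 0 in normoxia to 7.42 FPKM (79 reads) in hypoxia, whereas TET1-si cells had 0.596 FPKM (6 reads) and 0.673 FPKM (7 reads). With N-scr set at an assumed bound of 3 reads, H-scr was 24.6-fold higher. Against the listed 0, the log2 counting interval began at 4.29. The hypoxia ratio in TET1-si cells was 1.13, with a log2 counting interval of -1.46 to 2.19, so no difference was detectable at this depth. Under hypoxia TET1-si cells were 11.03-fold lower than scrambled cells (-4.73 to -2.26). Under normoxia the order was the other way, with N-si 1.88-fold above N-scr set at that bound. That comparison rested on 6 reads against 0, and the lower end of its interval was 0.14.

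SPRR1B (ENSG00000169469, hg19 chr1:153003678-153005376, plus strand) codes for a close relative of SPRR1A and showed the same order of libraries. The scrambled libraries had 0.107 FPKM (1 read) in normoxia and 3.55 FPKM (35 reads) in hypoxia, and the TET1-si libraries 0.401 FPKM (4 reads) and 1.24 FPKM (11 reads). H-scr was 33.1-fold above N-scr, where 1 read left an interval of 2.46 to 10.4 for the log2 ratio. In TET1-si cells the hypoxia ratio was 3.08 with an interval of -0.18 to 3.68. The TET1-si library was 2.88-fold lower under hypoxia (-2.67 to -0.54) and 3.74-fold higher under normoxia, where the interval of -1.43 to 7.53 included 0. On the log2(FPKM + 0.1) scale, which adds 0.1 FPKM to every value and so shrinks changes of low genes, the hypoxia response of TET1-si cells less that of scrambled cells was -6.08 for SPRR1A and -2.73 for SPRR1B. Their size depends on the amount added. With 1 FPKM added the differences were -3.01 and -1.37, and with 0.01 FPKM they were -9.37 and -3.33. Both genes reached a mean of 1 FPKM through H-scr alone, since the means of the other 3 libraries were 0.423 and 0.581. Neither had an exact 100-base stretch in common with another transcript. Reads aligned with mismatches were not examined.

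The other small proline-rich members were at or near 0. SPRR2A (ENSG00000241794, hg19 chr1:153028589-153030013, minus strand) had 3 reads in N-scr (0.264 FPKM), 2 in H-scr (0.164 FPKM), 1 in N-si (0.0822 FPKM) and 0 in H-si. SPRR2D (ENSG00000163216, hg19 chr1:153012201-153014407, minus strand) was at 0.279 FPKM in N-scr, from 3 reads, and at 0 in the other libraries. SPRR3 (ENSG00000163209, hg19 chr1:152974223-152976332, plus strand) was listed at 0 in all 4. No fold was given for these genes, because no library exceeded 3 reads. SPRR2A shared 21.5% of its 100-base windows with SPRR2B, SPRR2D or SPRR2E, and SPRR2D shared 7.44%, so their few reads could also be split among copies.

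EVPL (ENSG00000167880, hg19 chr17:74000583-74023533, minus strand, 22 exons), the plakin scaffold on which the envelope is assembled, was the most evenly expressed member. Its level with the scrambled control was 18.3 FPKM (2617 reads) in normoxia and 27.7 FPKM (4244 reads) in hypoxia, and with TET1-si it was 24.0 FPKM (3669 reads) and 39.2 FPKM (5523 reads). EVPL was the highest of the 10 genes in every library except H-scr, where TGM1 exceeded it. Hypoxia libraries exceeded normoxia libraries 1.52-fold in scrambled cells (0.53 to 0.67) and 1.63-fold after TET1-si (0.65 to 0.77). TET1-si libraries were 1.42-fold higher under hypoxia (0.44 to 0.56) and 1.32-fold higher under normoxia (0.32 to 0.47). All 4 differences exceeded counting error and none reached 2-fold. EVPL overlaps CDK3 and TEN1-CDK3 on the opposite strand by 1498 bases, and CDK3 was at 7.53, 12.4, 9.29 and 12.2 FPKM in N-scr, H-scr, N-si and H-si.

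CNFN (ENSG00000105427, hg19 chr19:42891171-42894439, minus strand, 4 exons), a cysteine-rich envelope component, was higher in both TET1-si libraries. Scrambled cells had 0.564 FPKM (4 reads) in normoxia and 1.18 FPKM (9 reads) in hypoxia. TET1-si cells had 3.95 FPKM (31 reads) and 11.1 FPKM (80 reads). Both TET1-si libraries were above both scrambled libraries. TET1-si cells were 9.34-fold higher under hypoxia (2.28 to 4.46) and 7.01-fold higher under normoxia (1.36 to 4.83). The hypoxia ratio was 2.80 in TET1-si cells, with an interval of 0.87 to 2.13. In scrambled cells it was 2.10, and the interval of -0.77 to 3.22 included 0. CNFN moved from the 4.68th percentile of genes with a mean of at least 1 FPKM in N-scr to the 44.7th in H-si.

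FLG (ENSG00000143631, hg19 chr1:152274651-152297679, minus strand, 3 exons), the keratin-bundling protein of the outermost layers, was low throughout. With the scrambled control it had 0.0937 FPKM (27 reads) in normoxia and 0.457 FPKM (141 reads) in hypoxia, and with TET1-si 0.175 FPKM (54 reads) and 0.488 FPKM (138 reads). Its transcript is long, so low levels still gave countable reads. Its mean of 0.304 FPKM was below the minimum of 1. The hypoxia libraries were 4.88-fold higher with the scrambled control (1.69 to 2.94) and 2.79-fold higher with TET1-si (1.01 to 1.95). Under hypoxia the TET1-si ratio was 1.07, and its interval of -0.26 to 0.44 bounded any difference by counting to less than 2-fold. The sign of that difference turned with median-of-ratios scaling, to -0.02 on the log2(FPKM + 0.1) scale. Under normoxia TET1-si cells were 1.87-fold higher, with an interval of 0.22 to 1.63. FLG-AS1 overlaps FLG over 23029 bases on the opposite strand and was at 0.163, 1.37, 1.36 and 1.69 FPKM in N-scr, H-scr, N-si and H-si. The counting was not stated to use strand, so reads of the overlapping pairs at EVPL and FLG cannot be told apart.

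**Figure D1:**
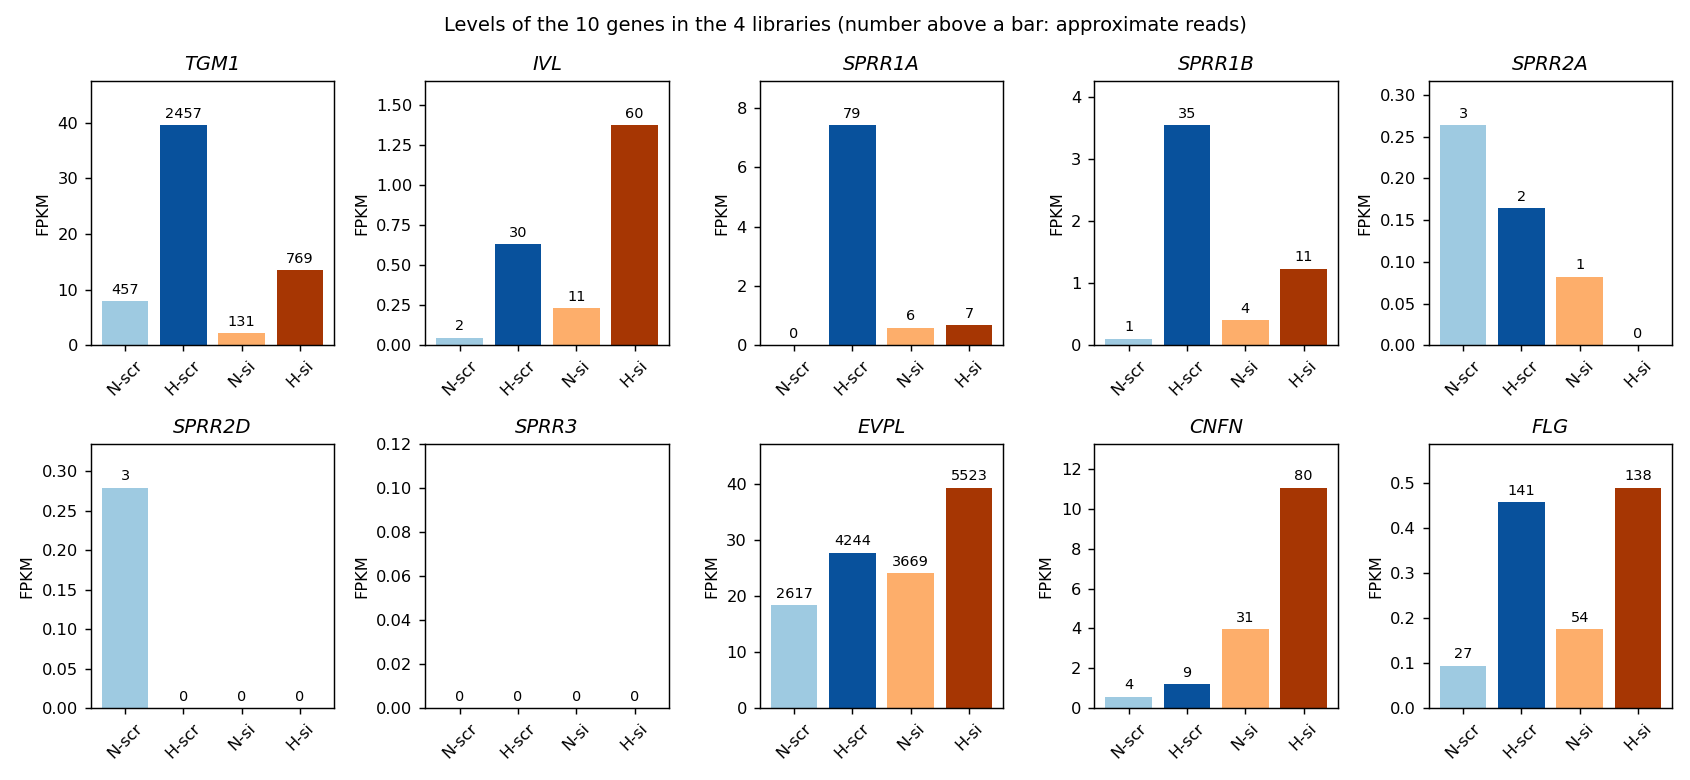
FPKM (y axis, starting at 0, with its own scale in each panel) of the 10 genes in the 4 libraries (x axis), with 1 bar per library and the approximate reads above it. TGM1, SPRR1A and SPRR1B peak in H-scr at 39.6, 7.42 and 3.55 FPKM, whereas IVL, EVPL and CNFN peak in H-si at 1.37, 39.2 and 11.1 FPKM.

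The hypoxia response in scrambled cells was a ratio above 1 for each of the 7 members with enough reads for one. A gene was called 2-fold higher or lower when its mean was at least 1 FPKM and its change on the log2(FPKM + 0.1) scale was at least 1, and 5 of the 10 members (TGM1, EVPL, SPRR1A, SPRR1B and CNFN) reached that mean. In scrambled cells 3 were called higher in hypoxia (TGM1, SPRR1A and SPRR1B), where 12.9% of 15057 genes were, and 0 lower, where 4.53% were. The SPRR1 pair had to differ in some comparison to pass, because H-scr alone carried them over the minimum, so this count is a description. The median change of the 5 was 2.31, beside 0.05 for all genes. By counting intervals alone, which apply no minimum, 6 of the 10 lay above 0 (IVL, SPRR1A, SPRR1B, TGM1, EVPL and FLG) and 0 below, against 28.5% and 21.5% of 24856 genes with a read.

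Hypoxia in TET1-si cells gave the same number of calls with a different set. TGM1, SPRR1B and CNFN were called higher (3 of 5, where 12.5% of genes were) and 0 lower (where 8.66% were). As SPRR1B passed the minimum through H-scr alone, this count is a description. The median change was 1.41, the value of SPRR1B itself, beside 0.03 for all genes. Without the SPRR1 pair it was 1.46. Counting intervals lay above 0 for 5 of the 10 (IVL, TGM1, EVPL, CNFN and FLG) and below 0 for 0, against 28.9% and 23.3% of genes. SPRR1A, with 6 and 7 reads, and SPRR1B, with 4 and 11, were the members whose intervals excluded 0 in scrambled cells and not here. The difference between the hypoxia responses had no replicate to be tested against. It was negative for 2 of the 5 members and positive for 3, from -6.08 (SPRR1A) to 0.51 (CNFN), with a median of 0.11 beside -0.06 for all genes. The size of the SPRR1A value depends on the pseudocount, since N-scr was listed at 0.

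After TET1-si the members divided. Under hypoxia 3 of 5 were called lower (TGM1, SPRR1A and SPRR1B), where 8.35% of genes were, and 1 higher (CNFN), where 12.0% were. SPRR1A and SPRR1B passed the minimum of 1 FPKM through H-scr alone, the library compared against here, so this count only describes them and is no support for a direction. The median was -1.45, the value of SPRR1B itself, beside 0.10 for all genes. For TGM1, EVPL and CNFN without the SPRR1 pair, a choice made after seeing the data, 1 was lower and the median was 0.50, of the opposite sign. Counting intervals put IVL, EVPL and CNFN above 0 and SPRR1A, SPRR1B and TGM1 below it, 3 and 3 of 10, against 30.4% and 22.7% of genes. Under normoxia 3 were called higher (SPRR1A, SPRR1B and CNFN), where 12.1% of genes were, and 1 lower (TGM1), where 5.56% were. This count too is only a description, since the SPRR1 pair passed the minimum through H-scr alone. Without the pair 1 was called higher. The median there was 1.27, the value of SPRR1B itself, beside 0.15 for all genes. For TGM1, EVPL and CNFN without the SPRR1 pair it was 0.39, and with SPRR1A set at its bound it was 0.91. At that bound 2 members were called higher in place of 3, since the call of SPRR1A comes from the pseudocount over 0 reads. Counting intervals lay above 0 for 5 (IVL, SPRR1A, EVPL, CNFN and FLG) and below 0 for TGM1, against 30.6% and 18.8% of genes. TGM1 was thus lower, and IVL, EVPL and CNFN higher, in both oxygen states, while the SPRR1 genes were lower under hypoxia and had 6 and 4 reads against 0 and 1 under normoxia.

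**Figure D2:**
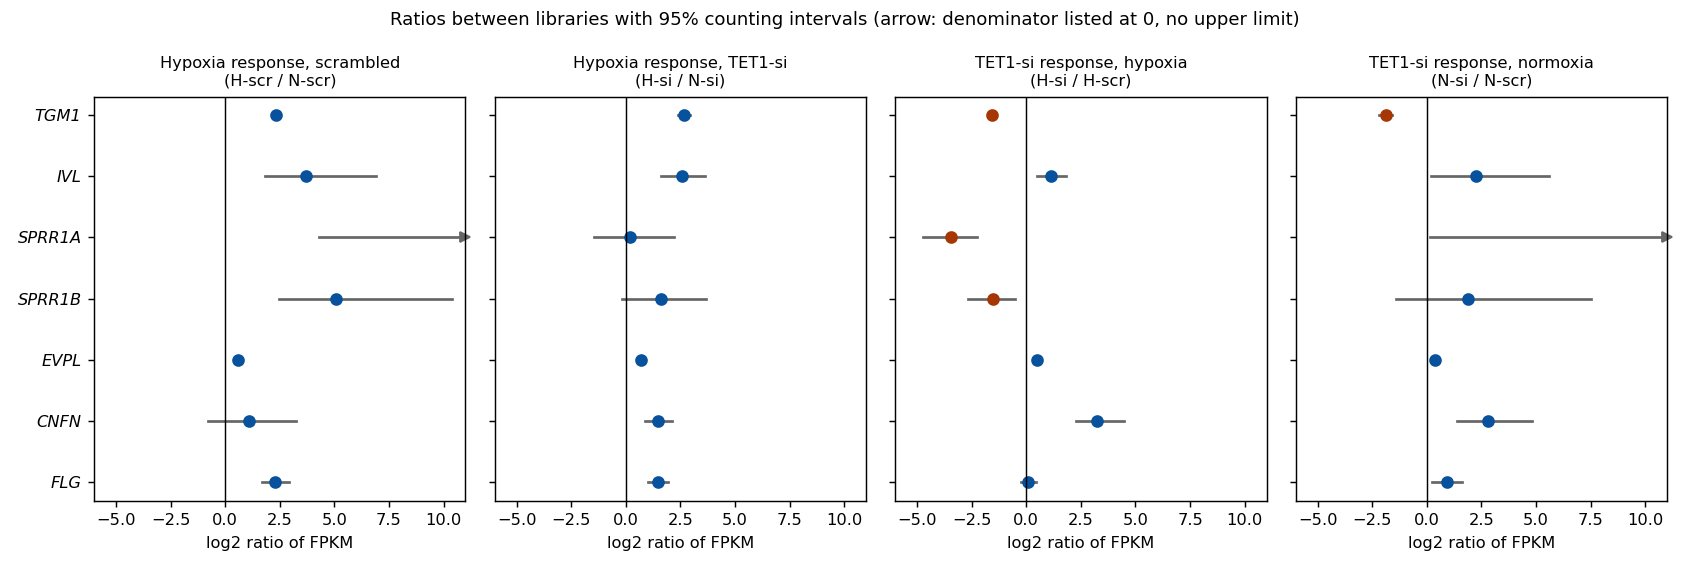
Log2 ratio of FPKM (x axis) for the 7 members with reads enough for a ratio, in the 4 comparisons (panels), with 95% exact counting intervals as lines, blue points above 0 and red points below. An arrow without a point marks SPRR1A against the N-scr value of 0. TGM1 has an interval of 2.18 to 2.48 for hypoxia in scrambled cells and below 0 in both TET1-si panels, and CNFN lies above 0 in both.

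**Figure D3:**
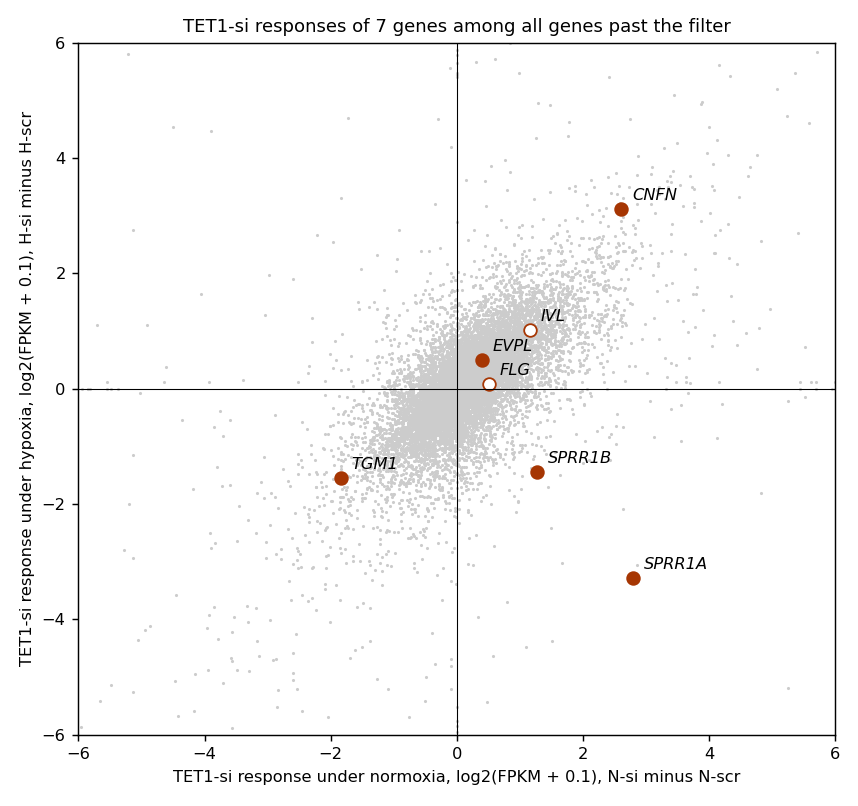
TET1-si response under normoxia (x axis) against that under hypoxia (y axis), both as differences of log2(FPKM + 0.1), for genes with a mean of at least 1 FPKM (grey, 15057 in all, of which 254 lie beyond the axes) and 7 members (red, open where the mean is below 1 FPKM). The x and y axes share no library. CNFN is at 2.61 and 3.12, TGM1 at -1.84 and -1.55, and SPRR1A at 2.80 and -3.28, in the quadrant of opposite signs.

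Summed over the 10 genes, approximate reads in normoxia and hypoxia were 3114 and 6997 with the scrambled control and 3907 and 6588 with TET1-si. EVPL and TGM1 supplied most of them. The 7 members on chromosome 1 had 36, 287, 76 and 216 reads in the same order. The sum for chromosome 1 was therefore higher in both hypoxia libraries, and its composition differed, since SPRR1A and SPRR1B gave 79 and 35 of the reads in H-scr and 7 and 11 in H-si. FLG, whose transcript is long, gave the largest part in every library, with 27, 141, 54 and 138 reads in the same order.

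The genes around them on chromosome 1 were at or near 0. The epidermal differentiation complex was taken as hg19 chr1:152056620-153234598, which held 43 protein-coding rows over 1178 kb. Of these, 21 were listed at 0 in all 4 libraries, loricrin (LOR), the main envelope protein of epidermis, among them (named after its values were seen). No gene reached 1 FPKM in either normoxia library, 2 did in H-scr, and 3 reached it in H-si. Those in H-scr were SPRR1A and SPRR1B, and in H-si they were IVL, SPRR1B and TCHH, the gene of trichohyalin, a structural protein of hair follicles. Summed FPKM over the complex in normoxia and hypoxia was 2.17 and 14.9 with the scrambled control, and 2.57 and 5.91 with TET1-si. None of the 33 listed complex genes outside the 10 reached a mean of 1 FPKM. The highest was TCHH at 0.833, 0.893, 0.481 and 1.11 FPKM in N-scr, H-scr, N-si and H-si. Its relative TCHHL1 was at 0.282, 0.863, 0.432 and 0.576, hornerin (HRNR) at 0.0324, 0.147, 0.0432 and 0.132, and SPRR4 at 0.0839, 0.235, 0 and 0.

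**Figure D4:**
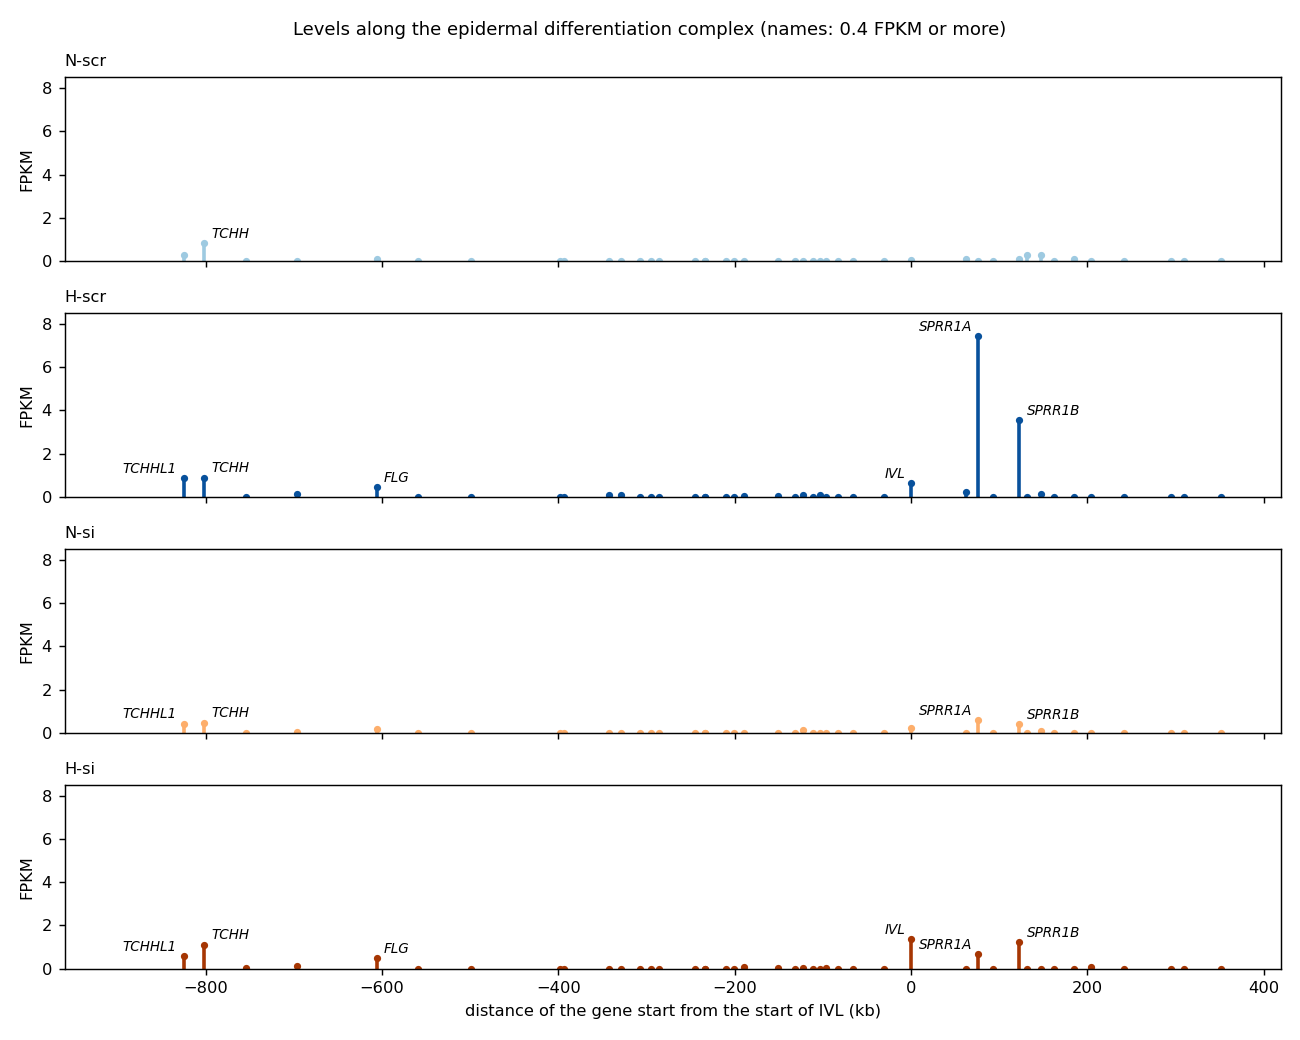
FPKM (y axis) of the protein-coding genes of the epidermal differentiation complex in each library (panels) against the distance of each gene's start from that of IVL in kb (x axis), with a point and stem per gene and names at 0.4 FPKM or more. SPRR1A at 7.42 and SPRR1B at 3.55 FPKM stand out in H-scr, and most other genes lie at or near 0 in every panel.

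Partners of the envelope encoded elsewhere were mostly higher in hypoxia and divided after TET1-si. Of 26 such genes, 14 had a mean of at least 1 FPKM. In hypoxia 6 of them were called higher and 0 lower in scrambled cells (median 0.90), and 10 higher and 0 lower in TET1-si cells (median 1.41). After TET1-si the calls under hypoxia were 4 higher and 4 lower (median -0.01), and those under normoxia 2 higher and 4 lower (median 0.11). The shares of all genes are those given for the members. Periplakin (PPL), which pairs with envoplakin in the scaffold, was at 64.7, 110, 110 and 244 FPKM in N-scr, H-scr, N-si and H-si. As with EVPL, its lowest library was N-scr and its highest H-si. The cystatin CSTA, an envelope precursor and protease inhibitor, was at 39.4, 53.5, 39.5 and 41.2 FPKM and differed by less than 2-fold in every comparison. DMKN, the gene of the secreted protein dermokine, was at 472, 362, 222 and 159 FPKM and was lower in hypoxia and after TET1-si. LYPD3, which codes for a membrane-anchored protein of upper epidermal layers, was at 4.17, 13.6, 14.4 and 46.2 FPKM, with every one of the 4 comparisons above 3-fold. Chosen after their values were seen, CALML5, a calmodulin-like protein of late keratinocytes, was at 0.197, 0.368, 3.13 and 15.95 FPKM, and RHCG, an ammonia transporter, at 1.60, 12.4, 0.127 and 0.377. CALML5 had the same order of libraries as CNFN, and RHCG was lowest in N-si and highest in H-scr, as TGM1 was.

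**Figure D5:**
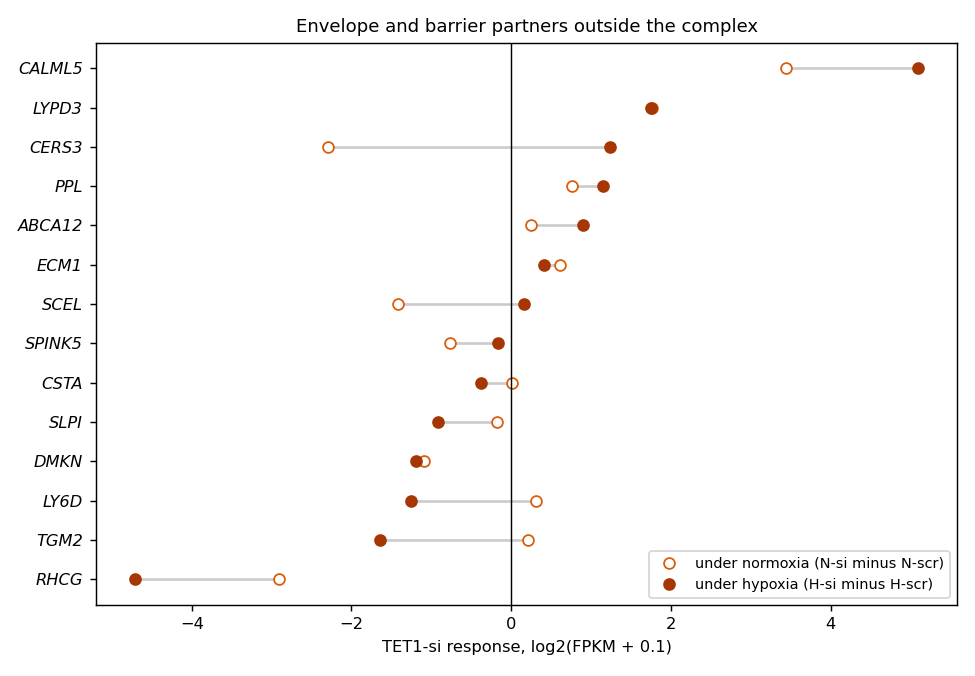
TET1-si response as a difference of log2(FPKM + 0.1) (x axis) of the 14 envelope and barrier partners with a mean of at least 1 FPKM (y axis), under normoxia (open points) and under hypoxia (filled points). CALML5 lies highest, at 3.44 and 5.10, and RHCG lowest, at -2.91 and -4.71, with PPL and LYPD3 above 0 and DMKN below 0 in both.

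Differentiation keratins, the filament proteins laid down with the envelope, were lower after TET1-si where they belong to mucosa. Of 5 listed, 3 had a mean of at least 1 FPKM. KRT13 was at 83.9, 121, 1.16 and 3.48 FPKM in N-scr, H-scr, N-si and H-si, and its partner KRT4 was at 14.99, 65.2, 0.943 and 4.63. Both were called lower in both oxygen states, where 8.35% of all genes were under hypoxia and 5.56% under normoxia. KRT10, a keratin of epidermis, was at 9.16, 6.998, 9.18 and 8.13 FPKM and was called in no comparison. In hypoxia 1 of the 3 was called higher with the scrambled control and 2 with TET1-si (12.9% and 12.5% of all genes), with 0 lower (4.53% and 8.66%).

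Among 21 regulators of keratinocyte differentiation, 16 had a mean of at least 1 FPKM. In hypoxia 2 were called higher and 1 lower in each knockdown state. The shares of all genes were 12.9% and 4.53% with the scrambled control, and 12.5% and 8.66% with TET1-si. After TET1-si the calls under hypoxia were 3 higher and 2 lower (12.0% and 8.35% of all genes). Those under normoxia were 5 higher and 0 lower (12.1% and 5.56%). The epithelial ETS factor ELF3 was at 290, 383, 397 and 569 FPKM in N-scr, H-scr, N-si and H-si. GRHL2, a grainyhead factor of epithelia, was at 63.5, 70.0, 147 and 160 FPKM and was above 2-fold higher in both TET1-si libraries. FOSL1, a subunit of AP-1, was at 88.7, 43.97, 106 and 18.1 FPKM and was lower in both hypoxia libraries. The AP-1 subunits FOSL2 (9.97, 18.1, 14.8 and 23.8 FPKM) and JUNB (31.0, 41.2, 26.95 and 35.0 FPKM), named after their values were seen, were higher in both.

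Markers of other cell types were read in the same way, and the shares of all genes are those given for the members. Of 7 fibroblast markers, COL1A1 alone had a mean of at least 1 FPKM, at 5.29, 28.6, 14.0 and 37.0 in N-scr, H-scr, N-si and H-si, the other 6 were under 1 FPKM in every library, and COL1A2 and LUM were at 0 in all 4. The list summed to 5.30, 28.7, 14.1 and 37.2 FPKM and was higher in hypoxia, with 1 of 1 called higher in both knockdown states and under normoxia after TET1-si. The 7 leukocyte markers summed to 24.1, 24.1, 30.9 and 32.6 FPKM, nearly all from CD68, a lysosomal protein, at 21.3, 19.8, 26.3 and 26.8. Of the 3 with a mean of at least 1 FPKM, 1 was called higher in hypoxia in TET1-si cells and 1 after TET1-si under normoxia. Their defining genes PTPRC and CD3E were at or under 0.0101 FPKM in every library. Endothelial markers, 3 of 4 in the table, summed to 8.93, 17.8, 22.2 and 48.4 FPKM, mostly from CDH5 at 8.75, 16.01, 21.7 and 45.5, with KDR under 0.05. Both of those with a mean of at least 1 FPKM (CDH5 and VWF) were called higher in hypoxia in TET1-si cells and after TET1-si under normoxia, and 1 of 2 in the other comparisons. COL1A1 and CDH5 were highest in H-si, as were IVL, EVPL and CNFN, and their part in those results was not tested.

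The genes whose profile over the 4 libraries was most like that of the members were found by the root mean squared difference from the members' median centred profile on the log2(FPKM + 0.1) scale. That profile, from the 5 members with a mean of at least 1 FPKM, was -1.91 and 2.004 in the scrambled libraries in normoxia and hypoxia, and -0.20 and 0.58 in the TET1-si libraries. Of 10784 other genes with a mean of at least 5 FPKM, the nearest were XAF1 (difference 0.19), LGALS9 (0.23), TM7SF2 (0.38), WFDC2 (0.41) and IRF7 (0.44). XAF1, which codes for a binding partner of an apoptosis inhibitor, was at 1.89, 27.7, 5.74 and 12.8 FPKM in N-scr, H-scr, N-si and H-si. LGALS9, a galectin gene, was at 1.47, 19.6, 4.21 and 5.90. The peak of the median profile in H-scr rests on SPRR1A and SPRR1B, which passed the minimum through that library alone. For TGM1, EVPL and CNFN the median profile was -0.52 and 0.07 in the scrambled libraries and -0.13 and 0.58 in the TET1-si libraries, with its peak in H-si. With 4 libraries the likeness rests on 4 points, and the members themselves did not share 1 profile.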

How the data were processed

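Poly(A) RNA of 4 FaDu cultures was sequenced with Illumina TruSeq libraries on a HiSeq instrument. Reads were 100 bp, single end by the labels and paired end by the study's methods. The authors aligned them to hg19 with TopHat, and deposited 1 table of gene-level FPKM (fragments per kilobase of exon scaled to the mapped total) made with Cufflinks and Ensembl annotation. Tool versions and filters are not given in the sources used here.

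FPKM are not counts, so no count model was fitted, and with 1 library per group no p-value was computed. Depth was recovered from 4394 single-exon genes, as the depth and length offset that made low values whole numbers of reads. Between 97.0% and 98.1% were whole within 0.05, at 22900000 and 24500000 reads for N-scr and H-scr and 24400000 and 22500000 for N-si and H-si. Approximate reads are FPKM times depth times transcript length (GENCODE lift37 release 44) less 212 bp. Ratios carry exact (Clopper-Pearson) 95% counting intervals with no pseudocount. They cover counting error only, and a value of 0 was set at an assumed 3 reads as its bound. The search and the calls were tested on simulated data.

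Changes are differences of log2(FPKM + 0.1), and calls need a mean of at least 1 FPKM and a change of at least 1. Rows of the 111 gene IDs that stand on more than 1 row were left out. Alternatives were pseudocounts of 1 and 0.01 FPKM, median-of-ratios scaling, upper-quartile scaling, rescaling to TPM, no filter and a mean of at least 5 FPKM. Chosen after seeing the data were the members without SPRR1A and SPRR1B, and SPRR1A at its bound.

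The members and the other 8 lists (other complex genes, envelope partners, differentiation keratins, regulators, epithelial identity, fibroblast, leukocyte and endothelial markers) were chosen with earlier results of these data known. By rule, all 10 members, up to 4 genes of highest mean in each other list, the 5 most alike genes and TET1 were named. A gene that this rule takes is not reported here. Some members and markers outside that rule are also named where a count of 5 or fewer turns on them. For other such counts the genes are not named. File starts count from 0, and 1 was added. Python 3.11.15, pandas 2.3.3 and scipy 1.17.1 were used.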

Additional observations from a re-analysis of the deposited data

Results flagged for a closer look

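SPRR1A moved in opposite directions after TET1-si in the 2 oxygen states. On the log2(FPKM + 0.1) scale its TET1-si response was 2.80 under normoxia and -3.28 under hypoxia. The difference between these responses was not tested, since each rests on 1 library a side. The value under normoxia came from 6 reads against 0.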

How the results depend on the processing

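No paired analysis was possible because each group held 1 library, and for the same reason no library could be left out. With no filter, in scrambled cells 5 members were at least 2-fold higher in hypoxia (8.01% of 56423 genes) and 1 lower (2.93%), with a median of 1.24, and 5 were higher in TET1-si cells (8.51%). After TET1-si 2 were then higher under hypoxia (7.49%), with a median of 0.00, and 2 were lower under normoxia (4.07%). SPRR2D, at 3 reads in N-scr against 0, was the 1 lower in scrambled cells and 1 of the 2 lower under normoxia. The 56423 rows include many with no read, so their shares are not a like measure for members with reads. The median difference of hypoxia responses became -0.071. With a mean of at least 5 FPKM, which leaves TGM1 and EVPL, 1 was higher in hypoxia in scrambled cells (8.39% of 10786 genes; median 1.46) and 1 in TET1-si cells (7.63%). After TET1-si 0 were then higher (8.17%) and 1 lower (7.32%) under hypoxia, and 0 higher under normoxia (8.27%), where the median reversed to -0.72. The median difference of responses was 0.20. With a pseudocount of 1 FPKM the median in hypoxia was 2.04 with the scrambled control and 0.68 with TET1-si (from 1.41), that of TET1-si under normoxia was 0.38 (from 1.27), and 1 member was higher after TET1-si under normoxia. Without SPRR1A and SPRR1B, an alternative chosen after seeing the data, 1 member was higher in hypoxia in scrambled cells (median 0.95), 1 was lower after TET1-si under hypoxia, where the median reversed to 0.50, 1 was higher after it under normoxia, and the median difference of responses was 0.30. With SPRR1A at its bound, also chosen after seeing the data, no direction changed. Of 50 single-member changes, 13 lost a 2-fold change with that pseudocount. IVL after TET1-si under hypoxia lost it with median-of-ratios scaling (0.90) and upper-quartile scaling (0.97). Median-of-ratios scaling moved the median of all genes after TET1-si under normoxia from 0.15 to -0.0043, and TPM moved that of hypoxia in scrambled cells from 0.05 to 0.16. At these depths SPRR2A, SPRR2D and SPRR3 could not be compared.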
